A study of Homo sapiens with 5 samples.

Results

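Interferon-stimulated genes are the genes that cells switch on when interferon, a cytokine released during viral infection, binds its receptor. The 42 genes described here were chosen by name, and the estimated counts of every deposited transcript with that gene name were summed. They are 42 of 35453 gene names in the table. A gene counted as measured when its mean over the 5 libraries was at least 20 scaled counts, which 41 of the 42 and 14585 of all gene names reached. The gene left out is RSAD2, which encodes viperin, with 8.01 scaled counts in the PMA library, 17.1 to 22 in the other treated libraries and 24.9 in control. The measured member nearest that limit is OASL, with 45.4 scaled counts with PMA, 42.6 with SC79, 31.6 with FSK and 29.1 with FSH, against 38 in control.

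KGN is an established human cell line grown from an ovarian granulosa cell tumour, and the labels give its cell type as granulosa cells. The study treated KGN cells for 24 h with agents that switch on the kinase pathways used by gonadotropins, and sequenced polyadenylated RNA. The FSH group received follicle-stimulating hormone at 100 ng/mL. The FSK group received forskolin, which activates adenylate cyclase and so protein kinase A. The SC79 group received SC79, an activator of protein kinase B (AKT), at 4 ug/mL. The PMA group received phorbol myristate acetate, which activates protein kinase C. Ethanol was the vehicle of all agents per the protocol and was added to control, which the title calls untreated. For FSK and PMA the treatment labels state 10 and 0.1 mmol/L, whereas the treatment protocol has a symbol for micromoles before the same 2 values. Every culture, control included, held androstenedione at 100 nmol/L in charcoal-stripped medium. There is 1 library per group, a pool of 90 ng RNA from each of 3 weekly cultures, so no difference below has a replicate check and no p-value was computed here.

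Type I interferons bind the receptor chains IFNAR1 and IFNAR2, whose kinases JAK1 and TYK2 phosphorylate STAT2 and other factors. STAT2 and IRF9 are parts of the complex ISGF3, which binds a DNA element called the interferon-stimulated response element (ISRE) in promoters. Interferon gamma uses its own receptor, and its signal reaches promoters through gamma-activated sites (GAS). Many of these genes keep a low level in the absence of interferon, and their products sense viral RNA, block viral entry or stop translation.

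The promoters are printed because many of them hold letters of the ISRE. RefSeq promoter windows on GRCh38.p14 run from 250 bases before to 50 bases after the start of a gene, and 34 of the 42 members had one. IRF7, IFIT2, OAS2, OASL, MX2, USP18, IFITM2 and TRIM22 were not in the table, and DDX58 stands there under its newer name RIGI. The letters GAAANNGAAA, searched on both strands and with overlapping matches counted separately, stand for the core of the ISRE. They were in 22 of the 34 windows (64.7%), against 3.57% of all 35116 windows in the table. The letters TTCNNNGAA, which stand for the GAS and can overlap the ISRE letters, were in 10 of the 34 windows (29.4%), against 7.66% of all windows. A match describes letters in a window and is not a measured binding site. In the sequences below, read 5′ to 3′ on the strand of the gene, capitals mark the ISRE letters of either strand. The first is the 250 bases before the start of IFI6, the gene with the largest SC79 ratio of the group, where the matches began at -156, -115 and -93 from the start.
IFI6, chr1:27672193-27672442, minus strand: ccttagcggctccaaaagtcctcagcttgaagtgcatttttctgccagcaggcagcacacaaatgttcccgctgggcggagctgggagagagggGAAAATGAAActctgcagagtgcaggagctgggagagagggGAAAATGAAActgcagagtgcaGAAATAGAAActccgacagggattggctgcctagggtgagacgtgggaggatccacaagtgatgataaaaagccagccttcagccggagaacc

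The next 7 sequences are stretches of 40 bases around the ISRE match nearest the start in members that were at least 1.2-fold higher with SC79 than in control.
MX1, chr21:41420548-41420587, plus strand: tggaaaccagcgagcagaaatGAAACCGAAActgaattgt
IFI44L, chr1:78620360-78620399, plus strand: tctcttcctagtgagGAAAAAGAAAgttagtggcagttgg
BST2, chr19:17405730-17405769, minus strand: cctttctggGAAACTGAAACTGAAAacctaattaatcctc
IFITM1, chr11:314019-314058, plus strand: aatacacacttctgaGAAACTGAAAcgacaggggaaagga
IFI27, chr14:94110626-94110665, plus strand: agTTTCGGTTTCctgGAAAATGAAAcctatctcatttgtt
ISG15, chr1:1013375-1013414, plus strand: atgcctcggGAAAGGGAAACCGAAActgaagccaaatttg
IFIT1, chr10:89392505-89392544, plus strand: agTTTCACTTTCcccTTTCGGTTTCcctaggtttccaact

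The same letters were present in members that lay within 1.2-fold of control with SC79, of which 4 are shown for comparison.
SAMD9, chr7:93118091-93118130, minus strand: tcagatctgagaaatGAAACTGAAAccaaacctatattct
DTX3L, chr3:122564317-122564356, plus strand: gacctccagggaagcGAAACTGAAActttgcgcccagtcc
PLSCR1, chr3:146544662-146544701, minus strand: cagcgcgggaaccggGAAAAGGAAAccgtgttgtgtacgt
IFIT5, chr10:89414549-89414588, plus strand: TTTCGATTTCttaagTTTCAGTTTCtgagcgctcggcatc

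IRF1, a transcription factor gene and the member with the largest drop below control in the FSK library, had GAS letters and no ISRE letters in its window. Here capitals mark the GAS letters, which began at -124.
IRF1, chr5:132490774-132491023, minus strand: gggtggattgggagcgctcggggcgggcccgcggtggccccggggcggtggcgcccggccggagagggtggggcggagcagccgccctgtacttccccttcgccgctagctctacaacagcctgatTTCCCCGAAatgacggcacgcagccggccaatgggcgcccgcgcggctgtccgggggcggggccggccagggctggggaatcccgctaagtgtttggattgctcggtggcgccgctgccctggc

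Among measured members with a window, the 22 with ISRE letters had a median log2 ratio of 0.28 for SC79 over control, and the 11 without had 0.18. At least 1.2-fold higher were 12 of the 22 and 2 of the 11, OAS1 and IRF9, both of which had GAS letters. IRF1 also had GAS letters without ISRE letters, and its log2 ratio was -0.02. The ISRE letters have a fixed gap between the GAAA repeats, so repeats with another gap were not counted. Outside the group, 297 measured genes with ISRE letters had a median of 0.01, and 7.41% of them were at least 1.2-fold higher with SC79. The 10480 outside the group without the letters had a median of -0.01, and 653 of them were at least 1.2-fold higher. Of all measured genes 7.95% were. For PMA over control the member medians were -0.03 with the letters and 0.25 without, and for FSK over control they were -0.15 and -0.10.

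**Figure D1:**
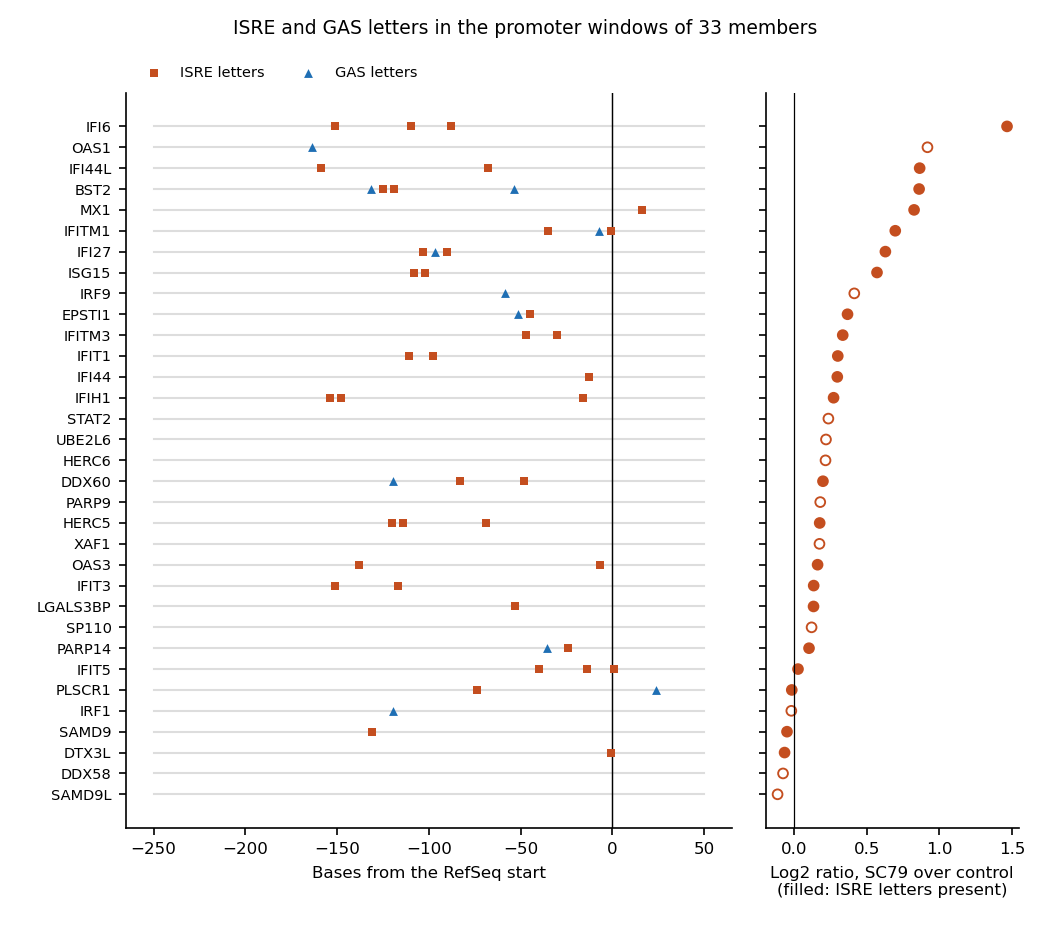
Left, centres of ISRE letters (squares) and GAS letters (triangles) in bases from the RefSeq start in the windows of 33 measured members; right, the log2 ratio of SC79 over control, filled where ISRE letters are present. Of the 14 members at the top of the plot, from IFI6 down to IFIH1, which are at least 1.2-fold higher with SC79, 12 have ISRE letters.

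Library totals were 50218950 to 53494152 estimated counts in the 4 treated libraries and 58811821 in control, and the 10 most abundant genes held 6.66% to 8.77% of them. Values are estimated counts per gene scaled by TMM, a method that equalises the libraries on the bulk of genes; ratios are log2 of scaled counts plus 1. Ranges in brackets are exact 95% intervals of the fold, which cover counting error only. Of the 10 granulosa markers 9 were measured, among them FOXL2 with 5459 scaled counts with PMA and 9137 to 10393 with the other agents, against 9978 in control. The list went both ways in the treated libraries, as given beside each comparison. WT1 had 0 to 1.06 scaled counts in any library. Of 12 leukocyte markers 3 were measured, and CD3E, CD3D and MS4A1 had 0 counts in all 5 libraries. The cultures are of a single cell line. Bulk RNA does not show how many of its cells express a marker or how strongly each does.

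Levels of the members spanned a wide range. On a TPM scale, which corrects for transcript length, LGALS3BP, a secreted glycoprotein that binds galectins, had the highest mean over the 5 libraries at 1388, above 99.4% of measured genes. IFITM3 followed at 571 and STAT2 at 122, all as means over the treated and control libraries. ISG15 stood at 65.97, IFI6 at 61.5, MX1 at 10.6, IFIT1 at 4.36 and OAS1 at 2.70. OASL was the lowest measured member at 0.696. IFI27 and IRF7 are left out of this order, since transcript lengths covered 59.8% and 53.3% of their counts.

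With SC79 the group stood higher than in control. Of the 41 measured members 16 were at least 1.2-fold higher, against 7.95% of all measured genes, and 0 were at least 1.2-fold lower, against 7.62%. The median log2 ratio was 0.22 over the members and -0.01 over all measured genes. IFI6 alone was at least 2-fold higher, where 0.59% of all genes were, and 0 members were 2-fold lower (0.281% of all genes). The interval of the fold lay above 1 for 29 members, below 1 for SAMD9L and across 1 for 11. The same split over all measured genes was not counted, and these intervals narrow as counts rise. The 16 were IFI6, OAS1, IFI44L, BST2, MX1, IFITM1, OAS2, IFI27, ISG15, MX2, IRF9, EPSTI1, IFITM3, IFIT1, IFI44 and IFIH1. The 12 leukocyte markers summed to 1176 scaled counts with SC79 and 925 in control. Of the 3 measured, CD68, which made up most of that sum, was at least 1.2-fold higher with SC79, IL3RA was lower and PTPRC lay within 1.2-fold. Of 9 measured granulosa markers 2 were higher and 2 lower, of 3 endothelial ones 0 and 1, and of 5 fibroblast and theca ones 1 and 0. The part of these markers in the result was not tested.

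With FSK the members spread to both sides, with 29 of 41 below control, a count that was not made over all genes. At least 1.2-fold higher were 8 of 41, or 19.5%, against 25.2% of all measured genes. At least 1.2-fold lower were 14, or 34.1%, against 24.7% of all genes. Whether these shares differ was not tested. The median was -0.14, against 0.01 over all genes. IFITM1 was at least 2-fold higher and IRF1 at least 2-fold lower, where 4.66% and 5.77% of all genes were. The other members higher were IFITM2, OAS1, IFITM3, STAT2, IRF7, IFI6 and LGALS3BP. Lower, beside IRF1, were OAS3, SAMD9L, IFI44, TRIM22, DTX3L, DDX60, IFIT3, PARP14, IFIT2, DDX58, EPSTI1, IFIH1 and SP110. Granulosa markers summed to 64442 scaled counts with FSK and 28256 in control, with 6 of 9 measured at least 1.2-fold higher, CYP19A1 by a log2 ratio of 4.93, and NR5A2 lower. Fibroblast and theca markers summed to 666550 with FSK and 914090 in control, with DCN higher and COL1A1, LUM and PDGFRA lower. Of the endothelial markers PECAM1 was higher and VWF and TIE1 lower, and of the leukocyte markers PTPRC was higher and 0 were lower. The part of these markers in the result was not tested. Both 2-fold calls are in genes that share sequence with others. With 31-base words of the listed transcripts, 64.7% of those of IFITM1 and 71.7% of those of IRF1 occur in no other gene of the table. Without the 6 members under 80% (these, IFITM2, IFITM3, IRF9 and USP18), 5 of 35 were at least 1.2-fold higher with FSK and 0 were 2-fold apart in either direction.

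With PMA the members also spread to both sides, in shares close to those of all genes, with a median of 0.01, against -0.0043 over all genes. At least 1.2-fold higher were 9 (23.3% of all genes): SAMD9, SP110, STAT2, IRF9, IFITM1, IRF7, ISG15, PARP9 and OAS1. At least 1.2-fold lower were 10 (24.6% of all genes): BST2, TRIM22, IFIT1, IRF1, USP18, LGALS3BP, OAS3, EPSTI1, OAS2 and XAF1. BST2 was the 1 member at least 2-fold lower (4.4% of all genes), and 0 were 2-fold higher (4.09%). With libraries scaled by their totals alone, 5 were at least 1.2-fold lower. Summed endothelial markers were 1254 scaled counts with PMA and 246 in control, with 3 of 6 measured and all 3 at least 1.2-fold higher. Leukocyte markers summed to 2285 with PMA and 925 in control. Of the 3 measured, CD68 was higher, at 2179 with PMA and 792 in control, IL3RA was lower, and PTPRC had a log2 ratio of -0.0063. Fibroblast and theca markers summed to 342540 with PMA and 914090 in control, with COL1A1, COL3A1 and LUM lower and DCN and PDGFRA higher. Of 9 granulosa markers INHBA, INHA and CYP19A1 were higher and FOXL2, NR5A2, GATA4, AMHR2 and FSHR lower. The part of these markers in the result was not tested.

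With FSH the members lay close to control. IFITM2 was at least 1.2-fold higher (7.12% of all genes) and OASL at least 1.2-fold lower (5.55% of all genes), and 0 members were 2-fold apart (0.768% of all genes higher, 0.295% lower). The median was 0.03, against -0.01 over all genes. The interval of the fold held 1 for 31 members, OASL among them (0.462 to 1.27), a count that was not made over all genes. The most abundant transcript of IFITM2 had an FSH log2 ratio of -0.05. Its transcript ENST00000602569.1 had 367 scaled counts with FSH and fewer than 1 in control. Among markers of cell types, INHA, AMHR2, CYP19A1 and PTPRC were at least 1.2-fold higher with FSH and NR5A2, VWF and LUM lower; their part in these values was not tested.

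These counts depend on the scaling where it moves all genes. In the authors' deposited normalized values as they stand, the median of all measured genes over control lay at -0.16 with FSH or FSK, at -0.28 with SC79 and at -0.24 with PMA. On that scale 9 members were at least 1.2-fold higher and 6 lower with SC79, 4 higher and 24 lower with FSK, and 5 higher and 17 lower with PMA. Relative to those medians the counts were 17 and 0 with SC79, 8 and 16 with FSK, and 9 and 10 with PMA.

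**Figure D2:**
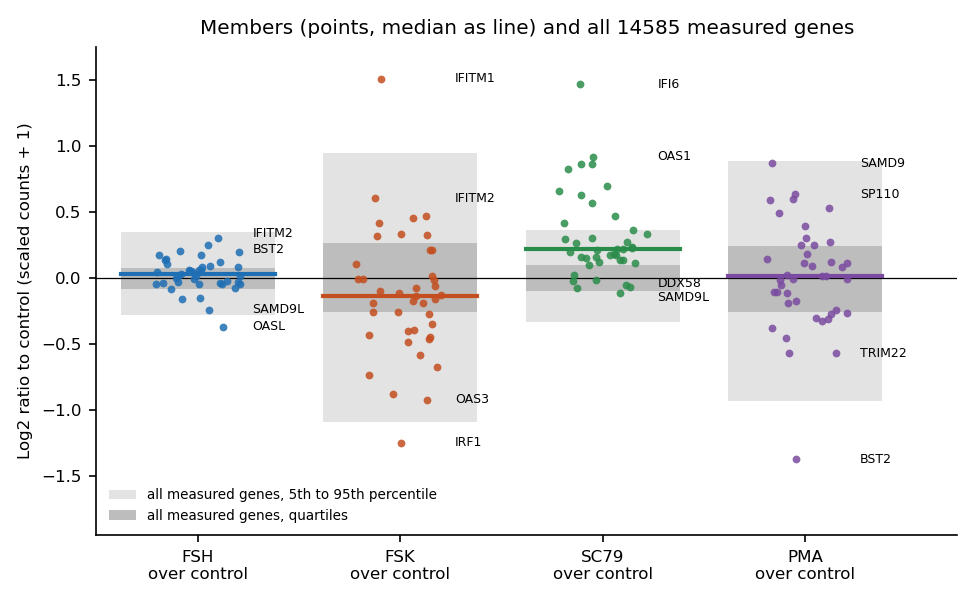
Log2 ratio to control of each of the 41 measured members (points; the coloured line is their median) for FSH, FSK, SC79 and PMA, over the quartiles (dark grey) and the 5th to 95th percentiles (light grey) of all 14585 measured genes. The SC79 points have a median of 0.22 and reach 1.47 for IFI6, far above the grey band, while outside the wider bands of FSK and PMA lie IFITM1 and IRF1 with FSK and BST2 with PMA.

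The RNA sensors were split. IFIH1, the sensor MDA5 of long double-stranded RNA, had 853 scaled counts with SC79, 701 with PMA, 686 with FSH and 556 with FSK, against 707 in control. DDX58, the sensor RIG-I, had 2647 with PMA, 2172 with FSH, 2107 with SC79 and 1686 with FSK, against 2225 in control. FSK was the lowest library for both, at log2 ratios of -0.35 and -0.40.

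The signalling factors shared a pattern apart from IRF1. STAT2 had 8651 scaled counts with PMA, 7649 with FSK, 6729 with SC79 and 6309 with FSH, against 5720.3 in control. IRF9, its partner in ISGF3, had 1459 with PMA, 1292 with SC79, 1125 with FSK and 1027 with FSH, against 970.3 in control. IRF7, which drives interferon alpha genes, had 761 with PMA, 680.0 with FSK, 634 with SC79 and 553 with FSH, against 541 in control. All 3 were thus highest with PMA and lowest in control, with PMA ratios of 0.60, 0.59 and 0.49. For FSH over control, though, the interval of the fold includes 1 for IRF9 (0.970 to 1.15) and IRF7 (0.908 to 1.15). Of the 31-base words of IRF9, 50.1% are its own and AL136295.5 shares others, so the division of reads between them is uncertain.

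IRF1 (ENSG00000125347, chromosome 5, 132481609 to 132490798 on GRCh38, GENCODE 29) had 1806 scaled counts with FSK and 3135 with PMA, against 4294 in control. The FSH and SC79 libraries had 4453 and 4232. The FSK fold was 0.42 [0.398 to 0.444] and the PMA fold 0.73 [0.698 to 0.764]. Its 4 transcripts with a mean of at least 100 scaled counts had FSK log2 ratios of -1.01 to -1.39, so the lower level was not limited to a single transcript.

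The IFIT proteins bind viral RNA and block its translation. IFIT1 had 283 scaled counts with SC79, 226 with FSH, 202 with FSK and 155 with PMA, against 230.0 in control. IFIT2 had 664 with SC79, 618 with FSH, 523 with PMA and 443 with FSK, against 597 in control. IFIT3 had 1215 with SC79, 1180.0 with PMA, 1175 with FSH and 804 with FSK, against 1108 in control. IFIT1 was lowest with PMA, at 0.672-fold [0.547 to 0.825], while IFIT2 and IFIT3 were lowest with FSK. IFIT5 stayed between 995 and 1182 in the treated libraries, against 1095 in control.

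The oligoadenylate synthetases make the second messenger of RNase L, except OASL, which lacks that activity. OAS1, named for its SC79 ratio although its mean is below 100, had 143 scaled counts with SC79, 105 with FSK, 91.2 with PMA and 82 with FSH, against 75.3 in control. The SC79 fold was 1.9 [1.43 to 2.53], and with so few counts the PMA interval of 0.888 to 1.65 includes 1. OAS2 had 989 with SC79, 653 with FSH, 548 with FSK and 517 with PMA, against 626 in control. OAS3 had 3513 with SC79, 2819 with FSH, 2529 with PMA and 1657 with FSK, against 3144 in control. All 3 were highest with SC79, but OAS3 by a log2 ratio of 0.16 only, and OAS3 was lowest with FSK at -0.92. The genes are neighbours on chromosome 12.

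MX1 and MX2 are dynamin-like GTPases that trap viral components. MX1 had 710.2 scaled counts with SC79, 461 with FSH, 424 with PMA and 397 with FSK, against 400.4 in control. MX2, next to it on chromosome 21, had 519 with SC79, 384 with FSH, 377 with FSK and 377 with PMA, against 374 in control. Both stood out in the SC79 library, at 1.77-fold [1.57 to 2.005] and 1.39-fold [1.22 to 1.59].

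ISG15 is a ubiquitin-like protein that UBE2L6 and the HERC ligases attach to other proteins and USP18 removes. ISG15 had 1317 scaled counts with SC79, 1167 with PMA, 1028 with FSK and 972 with FSH, against 887 in control. Its enzymes moved less: UBE2L6, HERC5 and HERC6 lay within 1.2-fold of control in all 4 treated libraries. USP18 had 166 with SC79, 165 with FSK, 149.96 with FSH and 118 with PMA, against 154 in control, with a PMA interval of 0.599 to 0.971-fold. USP18 shares sequence with USP41, and 69.2% of its 31-base words are its own.

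PARP9 and DTX3L form an ADP-ribosylation and ubiquitin ligase complex, and PARP14 is a related transferase; the 3 genes lie close together on chromosome 3. PARP9 had 1702 scaled counts with PMA, 1558 with SC79, 1391 with FSH and 1221 with FSK, against 1377 in control. DTX3L had 3827 with PMA, 3561 with FSH, 3361 with SC79 and 2345 with FSK, against 3523 in control. PARP14 had 7086 with SC79, 6656 with FSH, 6091 with PMA and 4837 with FSK, against 6608 in control. FSK was the lowest library for all 3, at log2 ratios of -0.17, -0.59 and -0.45.

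The IFITM proteins sit in membranes and block the entry of enveloped viruses, and they were the highest family with FSK. IFITM1 (ENSG00000185885, chromosome 11, 313506 to 315272) had 1976 scaled counts with FSK, 1122 with SC79, 999.9 with PMA and 793 with FSH, against 693 in control. The FSK fold was 2.85 [2.62 to 3.11], and a single transcript held 97.6% of the counts. IFITM2 had 2215 with FSK, 1799 with FSH, 1745 with SC79 and 1649.7 with PMA, against 1457 in control. Its most abundant transcript had an FSK log2 ratio of 0.24, against 0.60 for the gene. Another transcript, ENST00000602569.1, had 574 scaled counts with FSK, 552 with PMA, 367 with FSH and 92.1 with SC79, and fewer than 1 in control. IFITM3 had 11479.5 with FSK, 10542 with SC79, 9435 with FSH and 7765 with PMA, against 8368 in control. The 3 genes share sequence, with 55.0% to 64.7% own 31-base words, so the intervals do not cover reads assigned to the wrong copy.

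IFI6 and IFI27 encode small hydrophobic membrane proteins. IFI6 (ENSG00000126709, chromosome 1, 27666061 to 27672218) had 2346 scaled counts with SC79, 1065 with FSK, 844 with PMA and 832 with FSH, against 848 in control. The SC79 fold was 2.76 [2.56 to 2.99], and 98.6% of its 31-base words are its own. Its 2 abundant transcripts had SC79 log2 ratios of 1.501 and 1.478. IFI27 had 4792 with SC79, 3330.1 with FSH, 2837 with FSK and 2744 with PMA, against 3102 in control. It was 1.54-fold [1.48 to 1.62] with SC79, and its 5 transcripts with a mean of at least 100 had log2 ratios of 0.60 to 0.69. Among these, 2 pairs carry identical values in every library.

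IFI44 and IFI44L are neighbours on chromosome 1 that diverged. IFI44 had 648 scaled counts with SC79, 537 with PMA, 511 with FSH and 317 with FSK, against 528 in control. IFI44L had 699 with SC79, 401 with FSH, 355 with FSK and 325 with PMA, against 384 in control. With SC79 the folds were 1.23 [1.09 to 1.38] for IFI44 and 1.82 [1.61 to 2.06] for IFI44L. With FSK they were 0.6 [0.521 to 0.691] and 0.924 [0.798 to 1.07].

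SAMD9 and SAMD9L, adjacent on chromosome 7, encode related cytoplasmic proteins that restrict poxviruses. SAMD9 (ENSG00000205413, 93099513 to 93118023) had 2758 scaled counts with PMA, 1469 with FSH, 1459 with SC79 and 1354 with FSK, against 1511 in control. SAMD9L had 1439 with PMA, 1313 with SC79, 1202 with FSH and 771 with FSK, against 1423 in control. SAMD9 was 1.82-fold [1.72 to 1.94] with PMA, where SAMD9L was 1.01-fold [0.941 to 1.09]. With FSK, SAMD9L was 0.542-fold [0.496 to 0.592] and SAMD9 0.896-fold [0.832 to 0.964].

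Among the other effectors BST2 moved furthest. BST2 (ENSG00000130303, chromosome 19, 17402939 to 17405648) encodes tetherin, which holds budding virions at the cell surface. It had 246 scaled counts with SC79, 161 with FSH, 134 with FSK and 51.5 with PMA, against 135 in control. The SC79 fold was 1.82 [1.47 to 2.25] and the PMA fold 0.381 [0.272 to 0.527], so these libraries stood on opposite sides of control. TRIM22, a ubiquitin ligase, had 4871 with SC79, 4327 with FSH, 2814 with PMA and 2622 with FSK, against 4188 in control. SP110, a nuclear body protein, had 986 with PMA, 690.0 with SC79, 573 with FSH and 525 with FSK, against 635 in control. Its most abundant transcript, with 58.9% of the counts, had a PMA log2 ratio of 1.01, against 0.63 for the gene.

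DDX60, a helicase, had 2444 scaled counts with SC79, 2065 with FSH, 1975 with PMA and 1523 with FSK, against 2132 in control. EPSTI1 had 442 with SC79, 387 with FSH, 277 with PMA and 259 with FSK, against 343 in control. XAF1, which opposes the apoptosis inhibitor XIAP, had 1236 with SC79, 1087 with FSH, 1050.1 with FSK and 909.5 with PMA, against 1096 in control. SC79 was the highest library for these 3 genes. LGALS3BP had 85400.5 with FSK, 75181 with SC79, 72851 with FSH and 54730.0 with PMA, against 68612 in control. PLSCR1, a phospholipid scramblase, ranged from 1696 to 1768 in the treated libraries, against 1791 in control.

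**Figure D3:**
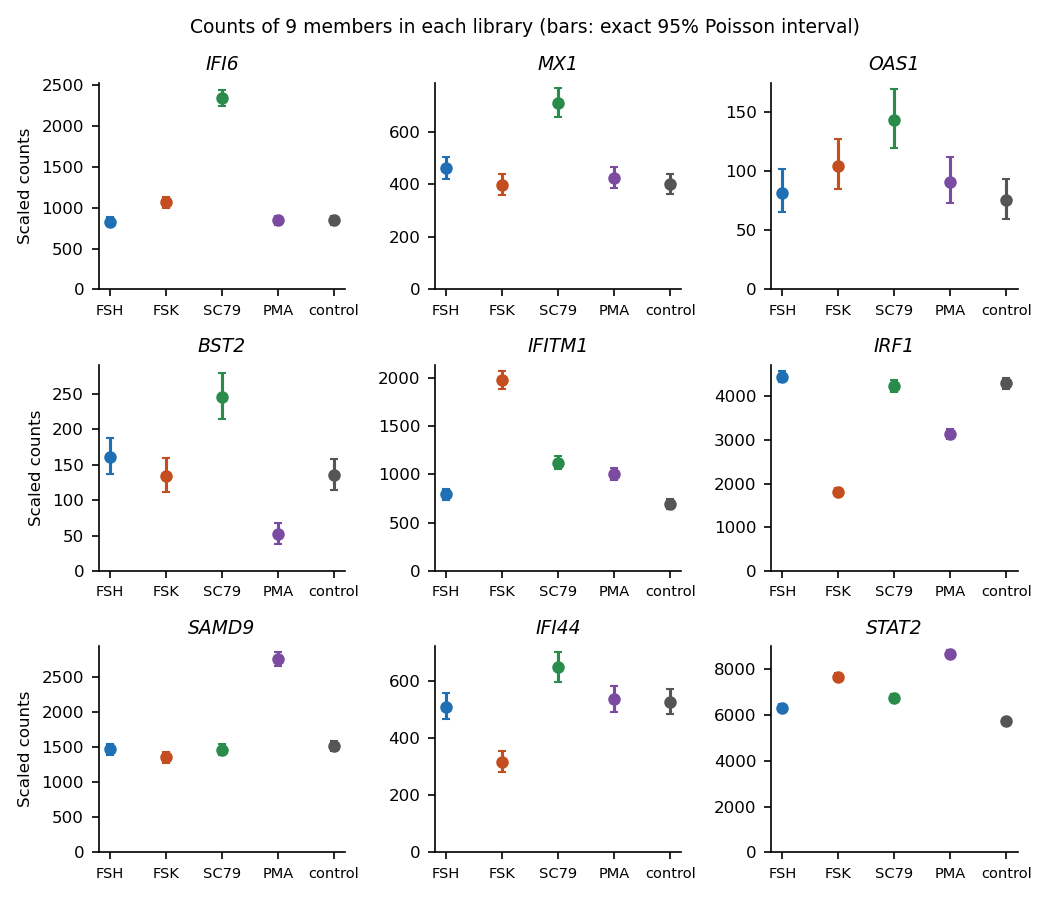
Scaled counts of 9 members in the FSH, FSK, SC79, PMA and control libraries, with exact 95% Poisson intervals that cover counting error only. SC79 is the highest library for IFI6, MX1, OAS1, BST2 and IFI44, FSK the highest for IFITM1 and the lowest for IRF1 and IFI44, and PMA the highest for SAMD9 and STAT2 and the lowest for BST2.

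**Figure D4:**
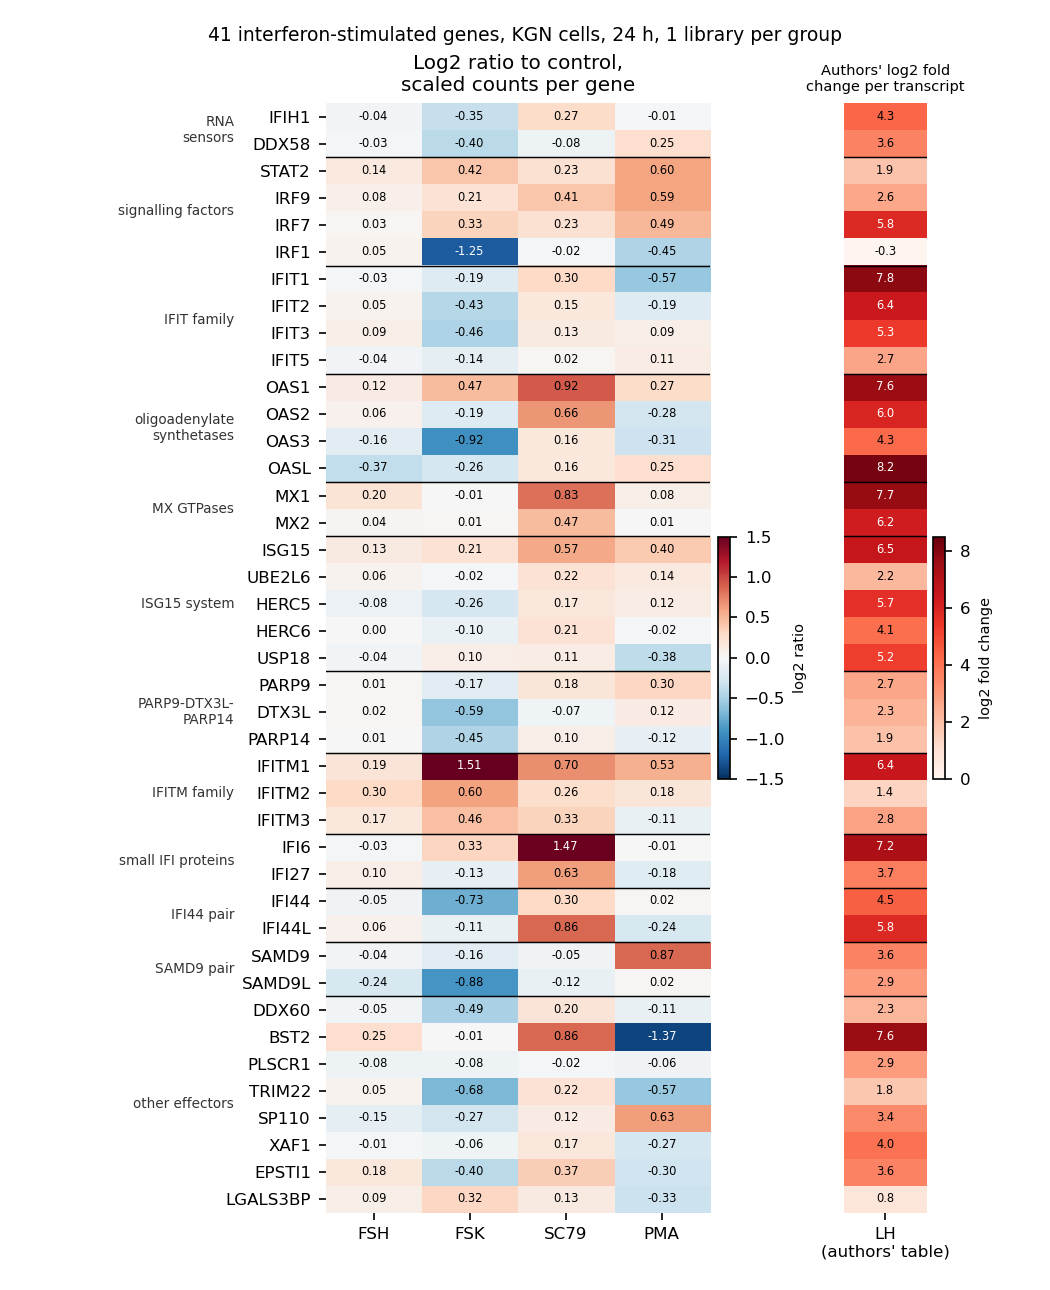
Log2 ratio to control of the 41 measured members, in rows ordered by role, for FSH, FSK, SC79 and PMA, with the log2 fold change of LH over control from the authors' deposited table in a column of its own on another colour scale. SC79 is above 0 for 35 of 41 members and FSK for 12, while the LH values run from -0.25 for IRF1 to 8.22 for OASL. Over all measured genes the median log2 ratio was -0.01 with SC79 and 0.01 with FSK, and the genes above 0 were not counted.

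Compared directly with FSH, the SC79 library was higher for 17 of 41 members by at least 1.2-fold (7.6% of all measured genes) and lower for 0 (8.28%). The median was 0.20, against 8.77e-05 over all genes. IFI6 was the 1 member at least 2-fold higher (0.487% of all genes), at a log2 ratio of 1.49, 0 were 2-fold lower (0.706%), and IFI44L and OAS1 followed at 0.80. All 4 oligoadenylate synthetases passed 1.2-fold, OASL among them at 0.53 from 42.6 scaled counts with SC79 and 29.1 with FSH, where the interval of the fold, 0.884 to 2.44, includes 1. In the authors' normalized values as they stand, where all genes had a median of -0.12, 11 members were higher.

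FSK against FSH gave 7 members at least 1.2-fold higher (23.9% of all genes) and 14 lower (23.1%), with a median of -0.16. IFITM1 was 2-fold higher (3.63% of all genes) at 1.32, and IRF1 2-fold lower (4.94%) at -1.30. Without the 6 members under 80% own words, 4 were higher and 0 were 2-fold apart.

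PMA against FSK gave 16 members at least 1.2-fold higher (26.1% of all genes) and 8 lower (25.7%), with a median of 0.16. SAMD9 was 2-fold higher (6.27%) at 1.03 and BST2 2-fold lower (5.75%) at -1.36. SP110 and SAMD9L followed SAMD9 at 0.91 and 0.90, and IFITM1 was at -0.98. The ratio of SAMD9 lies close to 2-fold, and in the authors' normalized values as they stand 0 members were 2-fold higher and 2 were lower. These direct comparisons share the FSH or FSK libraries with each other and with the comparisons to control.

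The ligands of the pathway were at or near 0. None of 21 interferon genes was measured, 10 of them had 0 counts in all 5 libraries, including IFNB1, IFNL1, IFNL2 and IFNL3, and the highest value of any was 14.7 scaled counts for IFNE in control. Summed over the 21 genes the estimated counts were 11 with FSH, 15 with FSK, 19 with SC79 and 14 with PMA, against 20 in control. The receptors and kinases were expressed. For SC79 over control 0 of 11 were at least 1.2-fold higher or lower, for PMA 4 were higher and 4 lower, for FSK 2 and 2, and for FSH 1 and 0. Over all measured genes the shares higher and lower were 7.95% and 7.62% for SC79, 23.3% and 24.6% for PMA, 25.2% and 24.7% for FSK, and 7.12% and 5.55% for FSH, so a list of 11 genes with 0 called for SC79 does not stand apart from them.

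JAK1 had 18899.5 scaled counts with PMA and 13228 to 13615 with the other agents, against 13738 in control. IFNAR1 had 7239 with PMA, 7117 with FSK, 4685 with FSH and 4529 with SC79, against 4867 in control. IFNAR2 ranged from 1646 with SC79 to 2088 with PMA, against 1728 in control. TYK2 ranged from 3569 with FSK to 4156 with PMA, against 3904 in control. TYK2 thus stayed within 1.2-fold of control. JAK1, IFNAR1 and IFNAR2 were at least 1.2-fold higher with PMA, and IFNAR1 was so with FSK as well.

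Of 37 measured further interferon-induced genes, 2 were at least 1.2-fold higher with SC79, ISG20 and DHX58, and 0 were lower; their median was 0.03. DHX58, the sensor LGP2, had 608 scaled counts with SC79, 547 with PMA, 537 with FSK and 405 with FSH, against 411 in control. ISG20, a nuclease, had 144 with PMA, 113 with FSK, 67.4 with FSH and 58.9 with SC79, against 46.9 in control. With FSK 11 of the 37 were higher and 12 lower, with PMA 10 and 8, and with FSH 2 and 0. The shares of all measured genes were 25.2% higher and 24.7% lower with FSK and 23.3% and 24.6% with PMA. They were 7.95% and 7.62% with SC79, and 7.12% and 5.55% with FSH. With each agent the counts of the 37 lie near these shares. With SC79 this list thus does not stand above all genes, unlike the members. Members and lists were chosen with earlier results of these data known, and the part of that choice in this contrast was not tested. The ratios that follow are ranked among genes that reach 100 scaled counts in either library compared. That limit leaves out ISG20 for SC79 at 0.32 and for FSH at 0.51, IFNLR1 for FSH at 0.29 and RTP4 for PMA at -1.03. The largest FSK ratios in the pathway lists were LGALS9, a galectin, at 2.4, TNFSF10, the death ligand TRAIL, at 2.32, GBP2, a guanylate-binding protein, at 1.63 and ISG20 at 1.25. The smallest were PARP12 at -0.98, APOL6 at -0.89, IFI16 at -0.78 and GBP1 at -0.75. GBP2 had 10016 with FSK and 1863 with PMA, against 3227 in control, so these libraries stood on opposite sides. For PMA the largest were ISG20 at 1.60, the kinase gene IKBKE at 0.98, SOCS3, a cytokine signalling inhibitor, at 0.72 and IFNAR1 at 0.57. The smallest were GBP2 at -0.79, GBP1 at -0.70, TLR3 at -0.67 and IFI30 at -0.65. For SC79 the largest were DHX58 at 0.56, C19orf66 at 0.25, and TMEM140 and IFI35 at 0.23. The smallest were PIAS1 at -0.22 and SOCS1 at -0.21, both inhibitors of STAT signalling, JAK2 at -0.18 and CD274, the ligand PD-L1, at -0.17. For FSH the largest were TNFSF10 at 0.34, LGALS9 at 0.24, GBP2 at 0.22 and IKBKE at 0.20, and the smallest NMI at -0.22, PARP12 at -0.15, and IFNGR1 and JAK2 at -0.14.

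Of 11 measured genes of nucleic acid sensing, DHX58 was at least 1.2-fold higher with SC79 and 0 were lower. DHX58 is also counted among the further interferon-induced genes. With PMA 6 were higher (MAVS, IKBKE, TMEM173, DHX58, TICAM1 and IFI16) and IRF5 and TLR3 were lower. With FSK 3 were higher and 3 lower, IFI16, a DNA sensor, among the lower at -0.78. Of 6 measured negative regulators, 0 passed 1.2-fold with SC79 or FSH, SOCS3 was higher and SOCS1 and PTPN2 lower with PMA, and IRF2 was higher and PTPN2 and RNF125 lower with FSK. Over all measured genes the shares higher and lower were 7.95% and 7.62% with SC79 and 23.3% and 24.6% with PMA. They were 25.2% and 24.7% with FSK and 7.12% and 5.55% with FSH. In lists of 11 and 6 genes, the SC79 and FSK counts do not stand apart from these shares.

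The authors' deposited table also holds a comparison headed LH over control, for which no library is among the 5 used here and whose dose and time no source used here states. It gives values per transcript, and the most abundant transcript of each gene was taken. For some members that transcript is a small or non-coding part of the gene. The one of IRF7 held 15.8% of its counts, and the one of STAT2, with 44.0%, is not protein-coding. By the authors' deposited table, 39 of the 41 members were at least 2-fold higher with LH (6.24% of all measured genes) and 0 were lower (9.49%). The median log2 fold change in the authors' deposited table was 4.04 over the members and -0.13 over all genes. The authors' adjusted p in the deposited table was under 0.05 for 21 members, all higher (0.603% of all genes), and for 0 lower ones (0.658%). For FSH, FSK, SC79 and PMA the share of all genes with an adjusted p under 0.05 in the authors' deposited table was not counted. No call by adjusted p is therefore given here for those agents, whether for the members or for all genes. Their member medians in the authors' deposited table were -0.04 with FSH, -0.16 with FSK, 0.16 with SC79 and -0.10 with PMA. Over all genes the authors' medians were -0.03, 0.01, -0.06 and -0.08 in the same order. How the authors' deposited table came to p-values without replicate libraries is stated in no source used here.

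The largest members in the authors' deposited table for LH were OASL at 8.22, IFIT1 at 7.81, MX1 at 7.66, BST2 at 7.62, OAS1 at 7.59 and IFI6 at 7.21, with adjusted p of 4.3e-05 for OASL and 0.00015 for IFI6. RSAD2, below the minimum in the 5 libraries, has 10.24 in the authors' deposited table. At the other end the authors' deposited table gives IFITM2 1.41, LGALS3BP 0.81 and IRF1 -0.25, with an adjusted p of 1 for each. In the authors' deposited table ISG20 and CMPK2, further interferon-induced genes, stand at 7.75 and 7.72. The receptor genes IFNAR1 and IFNAR2 stand at -0.19 and -0.26 in the authors' deposited table. IFNB1 has 11.38 with an adjusted p of 4.88e-05 in the authors' deposited table; with 0 counts in all 5 libraries, that value gives no size of change. CD68 stands at 4.19 in the authors' deposited table, while PTPRC, which marks leukocytes in general, is at -0.28. CD3E, CD3D and MS4A1 are at 0 there, but with 0 counts in all 5 libraries those values give no size of change. The other leukocyte markers run from -2.06 for ITGAM to 1.10 for CD14, both with few counts in the 5 libraries. The part of these markers in the LH values was not tested.

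Members high with LH in the authors' deposited table also tended to be higher with SC79 than with FSH, a pair of libraries that does not include control. Across the 41 members Spearman's rho between the authors' deposited LH values and the SC79 over FSH log2 ratios was 0.72 and Pearson's r 0.673. This is a description across genes, which are not independent, share promoter elements and differ in abundance.

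**Figure D5:**
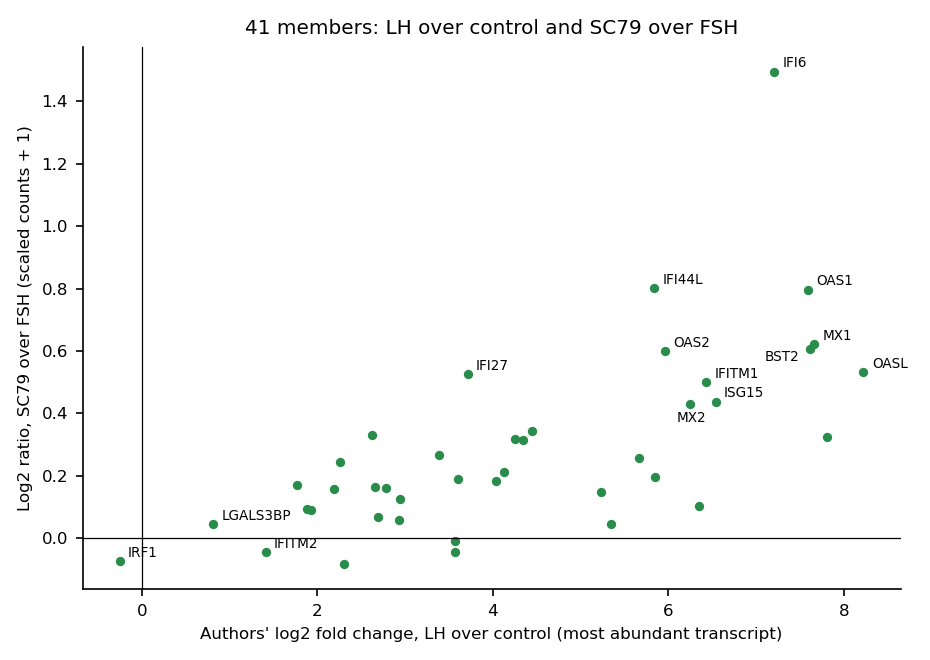
Each point is 1 of the 41 measured members, with the log2 fold change of LH over control for its most abundant transcript in the authors' deposited table on the x axis and the log2 ratio of SC79 over FSH on the y axis. IFI6 stands highest at 7.21 and 1.49, and IRF1, IFITM2 and LGALS3BP lie at the left near 0 on the y axis.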

How the data were processed

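Polyadenylated RNA of KGN cells was measured in 5 libraries, 1 per group. The authors deposited estimated counts per transcript from kallisto after Trimmomatic, per the submitters' processing notes, which also name edgeR; no source used here gives versions, the transcript index or the genome build. The authors also deposited normalized values (a signal on their own scale) and a table of log2 fold changes with p-values, per the file headers. The tests planned here assumed counts per gene, whereas the files hold estimated counts per transcript.

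Estimated counts were summed by gene name; 303 of 179973 transcripts have none and held 0.0623% of counts. Libraries were scaled by TMM (edgeR 4.0.16, R 4.3.3). Ratios are log2 with a pseudocount of 1, so changes of low genes are understated. Genes with a mean of at least 20 scaled counts were kept. Fold intervals are exact 95% conditional binomial intervals (Clopper-Pearson; scipy 1.17.1, Python 3.11.15) and, since reads carry no molecular identifiers, cover counting error only. A difference was counted at 1.2-fold and at 2-fold. Intervals and ratios were tested on simulated data. Gene coordinates are from GENCODE 29 on GRCh38 and promoters from RefSeq on GRCh38.p14.

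Values in every library are given for members with a mean of at least 100 scaled counts that passed 1.2-fold with any agent. In the pathway lists, the 4 largest and 4 smallest ratios per agent among genes that reach 100 scaled counts in either library compared are named, with JAK1, TYK2, IFNAR1, IFNAR2 and the interferons always; 1 further gene of that rule is not reported here. Members and lists were chosen with earlier results of these data known. Alternatives were DESeq2 1.42.0 size factors, library totals, the authors' normalized values, pseudocounts of 0.5 and 5, other minimum means, protein-coding transcripts alone, the mean over members and the removal of members with shared sequence.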

Additional observations from a re-analysis of the deposited data

Results flagged for a closer look

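The authors' deposited table compares LH with control, and no LH library is among the 5 compared here. Its median log2 fold change over the most abundant transcripts of the 41 measured members was 4.04 in the authors' deposited table, against -0.13 over all measured genes. It is given here because it is a signal in data outside the compared libraries.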

How the results depend on the processing

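With 1 library per group, no replicate could be left out, and depth limits the members of low counts, such as OASL and RSAD2. No paired analysis was possible because each group has 1 library. With the authors' normalized values as they stand, the member medians over control were -0.12 with FSH, -0.31 with FSK, -0.0548 with SC79 and -0.22 with PMA. On that scale the members at least 1.2-fold higher and lower were 0 and 4 for FSH, 4 and 24 for FSK (3 at least 2-fold lower), 9 and 6 for SC79, and 5 and 17 for PMA. SC79 over FSH then had 11 higher, and PMA over FSK had 0 at least 2-fold higher and 2 lower. IFIH1 changed sign for SC79 over control there, at -0.00215. Relative to the median of all genes, an alternative chosen after seeing the data, no member count moved by over 1.5 times. By library totals alone, 2 members were higher with FSH and 5 lower with PMA. With a minimum mean of 100, 0 were lower with FSH; with a minimum of 1, which lets RSAD2 in, 2 were lower with FSH and 1 with SC79, and 2 were 2-fold lower for both PMA over control and PMA over FSK. With protein-coding transcripts alone, 2 were higher and 2 lower with FSH. Without the 6 members with shared sequence, also chosen after seeing the data, 0 were higher with FSH, 5 with FSK and 4 for FSK over FSH. There, 0 were 2-fold higher or lower for FSK over control or over FSH, and 4 were lower for PMA over FSK. The cause of these shifts was not tested beyond the members added or removed. DESeq2 size factors and pseudocounts of 0.5 and 5 moved no median, and no count by over 1.5 times.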
